A study of Mus musculus with 32 samples.

Results

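Mast cells were followed in whole mouse bladders through 9 genes: the granule proteases Cpa3, Mcpt4, Cma1, Tpsb2 and Tpsab1, the stem cell factor receptor Kit, the alpha and beta chains of the high-affinity IgE receptor (Fcer1a and Ms4a2), and Hdc, which makes histamine. The members were chosen by gene symbol, and each symbol matched 1 of the 32285 genes in the count table. All 32 libraries were bulk RNA sequencing of bladders from female C57BL/6 mice. Young (2 months, n = 6), middle-aged (10 months, n = 5) and untreated old mice (26 months, n = 6) had received nothing, whereas the other old groups, also 26 months of age, had been gavaged on 3 days a month from month 21 to month 26. Gavage was with water (n = 5), with the drug vehicle of Phosal 50 PG, PEG 400 and ethanol (n = 4), or with D+Q, the senolytic pair dasatinib (5 mg/kg/day) and quercetin (50 mg/kg/day) in that vehicle (n = 6). All gavaged animals were old, so gavage at a younger age was not tested. Libraries held between 15088372 and 52650259 counts, and the least deep 2 were young replicates 3 and 4.

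Mast cells are tissue-resident leukocytes that store proteases, histamine and heparin in granules and release them when IgE on their surface binds its antigen. Connective tissue-type mast cells lie in the bladder wall and carry chymases, tryptases and carboxypeptidase A3, while mucosal-type mast cells carry Mcpt1 and Mcpt2. Stem cell factor, made from Kitl, keeps mast cells alive through Kit, one of the kinases that dasatinib inhibits. Kit is also made by interstitial cells and melanocytes, and Hdc by basophils and other myeloid cells. In bulk tissue, fewer mast cells and less RNA per mast cell cannot be told apart.

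GATA2 is a transcription factor that mast cells need, and it binds DNA at sites that hold the letters GATA. The 250 bases before the transcription start are shown for Cpa3, Mcpt4 and Cma1, the proteases for which a sequence was at hand and whose RNA was lower in old than in young bladders. The sequences are those of RefSeq on GRCm38.p6, which had entries for 7 of the 9 members, and all 3 genes lie on the minus strand. Capitals mark GATAA or, where it lies on the other strand, TTATC.
Cpa3, chr3:20242182-20242431: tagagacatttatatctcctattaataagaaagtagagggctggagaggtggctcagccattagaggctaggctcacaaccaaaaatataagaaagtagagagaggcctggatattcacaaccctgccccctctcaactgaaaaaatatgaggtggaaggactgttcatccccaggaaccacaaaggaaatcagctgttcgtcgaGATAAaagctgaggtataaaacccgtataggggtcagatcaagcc
Mcpt4, chr14:56062311-56062560: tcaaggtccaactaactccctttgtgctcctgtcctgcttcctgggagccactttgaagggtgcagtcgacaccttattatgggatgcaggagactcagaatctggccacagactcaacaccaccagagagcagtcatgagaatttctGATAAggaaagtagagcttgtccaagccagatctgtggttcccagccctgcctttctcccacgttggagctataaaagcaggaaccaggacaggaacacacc
Cma1, chr14:55944676-55944925: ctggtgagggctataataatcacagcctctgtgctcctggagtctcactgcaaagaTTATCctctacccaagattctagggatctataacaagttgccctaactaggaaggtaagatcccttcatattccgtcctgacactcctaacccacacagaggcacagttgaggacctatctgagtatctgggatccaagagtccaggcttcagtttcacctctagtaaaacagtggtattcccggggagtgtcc
Each of the 3 stretches held the motif 1 time, starting 45 bases before the start in Cpa3, 102 in Mcpt4 and 194 in Cma1. Of 32851 such stretches in the same table, 22.6% held GATAA on either strand. Among the other members, Ms4a2 held it 3 times and Fcer1a 1 time, and Kit and Hdc 0 times. Gata2 itself was read at a mean of between 92.0 and 110.3 CPM in the 6 groups. CPM stands for TMM counts per 1000000 counts, the unit of levels below, with TMM the trimmed-mean scaling between libraries. No protease had a group mean above 2.374 CPM, and which cells made the Gata2 RNA was not tested.

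The proteases were most abundant in young bladders. In TPM (counts per base of transcript, scaled to the same sum in each library), which allows levels of different genes to be compared, Cma1 stood at 7.66 ± 0.988 (SD, n = 6), Mcpt4 at 6.03 ± 2.18, Tpsb2 at 5.24 ± 1.33 and Cpa3 at 4.63 ± 1.84 in the young group, and the ranges of neighbouring means ± SD overlapped. Kit was higher at 16.5 ± 5.61 TPM. Hdc was at 0.328 ± 0.222, Tpsab1 at 0.283 ± 0.221, Fcer1a at 0.130 ± 0.147 and Ms4a2 at 0.111 ± 0.106 TPM. Both receptor chains thus averaged under 1 TPM. Mcpt4 (chr14:56059629-56062313) and Cma1 (chr14:55941451-55944675) lie in the chymase cluster, and Tpsb2 (chr17:25366305-25369098) and Tpsab1 (chr17:25343245-25345562) in the tryptase cluster, all on mm10. Cpa3 lies at chr3:20215620-20242181, Kit at chr5:75574916-75656722, Hdc at chr2:126593667-126619299, Ms4a2 at chr19:11615523-11623719 and Fcer1a at chr1:173221284-173227214. Members of such clusters can share reads: 5.48% of the 50-base windows of Mcpt4 transcripts and 5.38% of those of Cma1 occurred in another gene, against 0 for Tpsb2 and Tpsab1.

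The connective tissue-type proteases Cpa3, Mcpt4, Cma1 and Tpsb2 were present, and the mucosal-type Mcpt1 and Mcpt2 were at or near 0. Ms4a2 and Fcer1a, also listed for the connective tissue type, had at most 10 and 11 counts in any bladder. Mcpt1 and Mcpt2 had 0 counts in every middle-aged bladder and at most 2 in any other, except untreated old replicate 3 with 6 counts of Mcpt1 and 9 of Mcpt2. Mcpt9 had 0 counts in every bladder. Cma2, another chymase gene, had at most 2 counts in any bladder. Mrgprb2, a receptor of connective tissue-type mast cells, had between 0 and 30 counts per bladder. Mcpt8, which defines basophils, was at 0 in every bladder except water-treated old replicate 1 (3 counts) and 2 D+Q-treated bladders (1 count each). The other basophil markers listed were Prss34, with at most 7 counts in any bladder, and Cd200r3. Group means of Cd200r3 lay between 25.07 and 32.72 CPM, and the cells that made it were not tested.

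**Figure D1:**
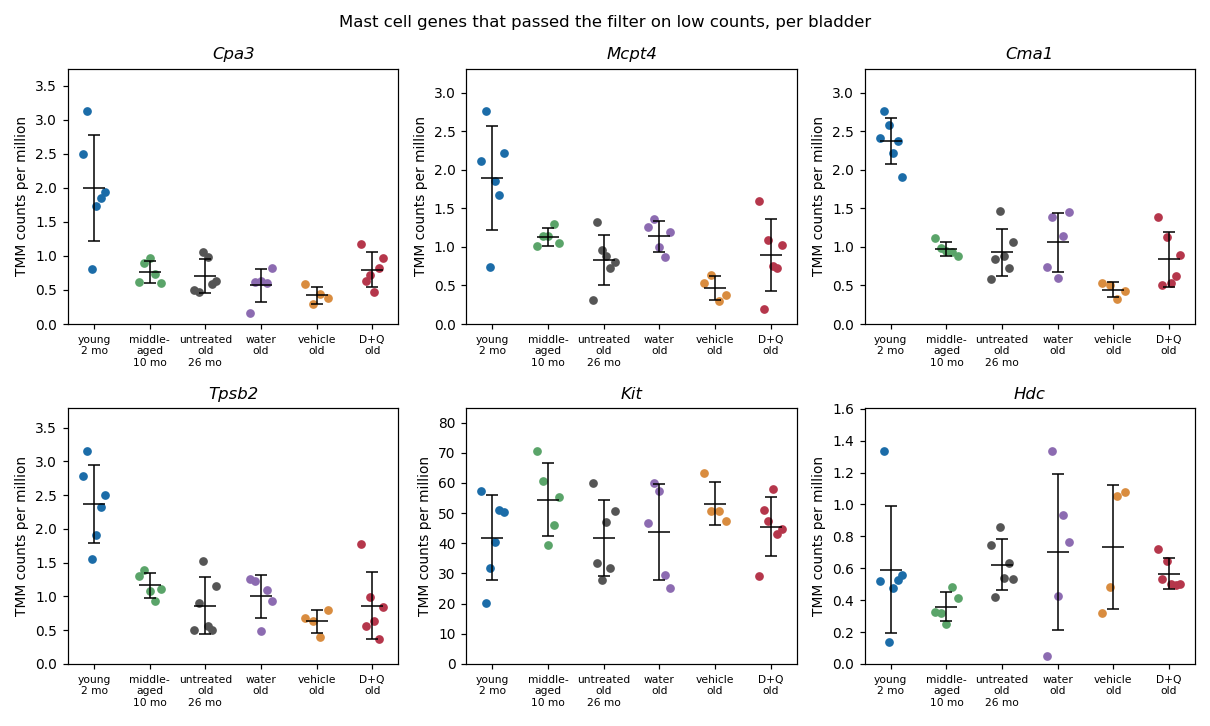
CPM after TMM scaling (vertical axes, from 0) of the 6 members that passed the filter on low counts, for each bladder (points) in the 6 groups, with the group mean and SD (black). Cma1 lay between 1.91 and 2.76 in young bladders and at 1.47 or below in every other group, whereas Kit overlapped between all groups.

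The first question was what happened to these genes between 2 and 10 months. Cpa3, Cma1 and Tpsb2 were lower in middle-aged than in young bladders, by about 2 to 3 times, while Kit was not. Of the 6 members that passed the filter on low counts, 3 fell and 0 rose (edgeR quasi-likelihood test, Benjamini-Hochberg adjusted over all genes), where 5.85% of the 16754 genes tested fell and 4.96% rose. The median log2 fold change of the 6 was -0.94, against 0.00 over all genes.

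Cma1, the chymase known as mouse mast cell protease 5, had a lowest level of 1.91, a median of 2.40 and a highest level of 2.76 CPM in the 6 young bladders. In the middle-aged bladders it was at 1.11, 0.986, 0.941, 0.933 and 0.882 CPM. All middle-aged bladders thus lay below all young ones, as they did for 2.73% of all genes tested. The fall was 1.30 on the log2 scale (SE 0.147, edgeR adjusted p = 0.00068), which is 2.46-fold.

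Tpsb2, the tryptase mouse mast cell protease 6, ranged from 1.56 to 3.15 CPM in the young group, with a median of 2.41. Middle-aged bladders had 1.31, 1.40, 1.08, 0.933 and 1.10 CPM, again all below the young. Its log2 fold change was -1.06 (SE 0.192, edgeR adjusted p = 0.0061).

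Cpa3, the mast cell carboxypeptidase, ranged from 0.814 through a median of 1.90 to 3.12 CPM in young bladders and was at 0.622, 0.890, 0.969, 0.735 and 0.607 in middle-aged ones. The groups overlapped because 1 shallow young library, replicate 3, held 12 counts. The log2 fold change was -1.42 (SE 0.275, edgeR adjusted p = 0.0080), the steepest point estimate of the 6.

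Mcpt4, the chymase closest in activity to the human enzyme, ranged from 0.746 to 2.76 CPM in young bladders (median 1.98) and lay at 1.01, 1.15, 1.14, 1.30 and 1.05 in middle-aged ones. Its log2 fold change of -0.79 (SE 0.239) did not pass, with an edgeR adjusted p of 0.051. Without young replicate 3 it passed at -0.93 (adjusted p = 0.0071), and it passed also without young replicate 4 or 5. Without both shallowest young libraries, a choice made after the data were seen, 5 members were lower, Mcpt4 (edgeR adjusted p = 0.0038) and Hdc (edgeR adjusted p = 0.050) being added.

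Kit ranged from 20.1 to 57.4 CPM in young bladders, with a median of 45.4, and was at 70.6, 60.8, 39.5, 46.2 and 55.3 in middle-aged ones. The ranges overlapped and the log2 fold change was 0.37 (SE 0.227, edgeR adjusted p = 0.317). The direction of the Kit value was therefore opposite to that of the proteases in the same libraries. Hdc ranged from 0.136 to 1.33 CPM in the young group (median 0.524) and from 0.249 to 0.481 in the middle-aged, with a log2 fold change of -0.82 (SE 0.392, edgeR adjusted p = 0.199). Without young replicate 2, the highest at 44 counts, it was -0.38 (SE 0.313).

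Between 10 and 26 months the proteases did not pass the test in either direction, and Hdc alone was called. Of the 6 members tested, 1 rose and 0 fell, where 13% of 17156 genes rose and 11% fell. Counts from 6 genes so near these shares are not read as a trait of the members. Hdc, histidine decarboxylase, stood at 0.328, 0.318, 0.249, 0.481 and 0.414 CPM in the middle-aged bladders. In untreated old bladders its lowest level was 0.421, its median 0.584 and its highest 0.861. The groups overlapped through middle-aged replicate 4, and the log2 fold change was 0.80 (SE 0.234, edgeR adjusted p = 0.026). The call was lost without middle-aged replicate 1, 2 or 3, where the adjusted p lay at 0.055, 0.052 and 0.068.

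In the same comparison the log2 fold change was -0.11 (SE 0.242) for Cpa3, -0.42 (SE 0.249) for Mcpt4, -0.04 (SE 0.205) for Cma1 and -0.41 (SE 0.284) for Tpsb2. Untreated old bladders ranged more widely than middle-aged ones: Mcpt4 lay between 0.310 and 1.32 CPM and Tpsb2 between 0.496 and 1.53 CPM. Kit, between 28.0 and 59.9 CPM in untreated old bladders, had a log2 fold change of -0.36 (SE 0.202, edgeR adjusted p = 0.227).

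Across the whole span from 2 to 26 months, 4 of the 6 members fell and 0 rose, beside 12.4% of 16873 genes that fell and 12.6% that rose. All 4 were the proteases. Cma1 fell by 1.35 on the log2 scale (SE 0.195, edgeR adjusted p = 0.00025) and lay between 0.589 and 1.47 CPM in untreated old bladders, below every young one. Tpsb2 fell by 1.47 (SE 0.281, edgeR adjusted p = 0.0018), also with no overlap, a separation seen for 6.16% of genes. Cpa3 fell by 1.53 (SE 0.289, edgeR adjusted p = 0.0017) and Mcpt4 by 1.21 (SE 0.304, edgeR adjusted p = 0.010), both with overlap. This comparison and that of middle-aged with young bladders share the young libraries, so they are not independent of each other.

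The 2 members that did not pass were level in their means. Kit averaged 41.8 ± 14.02 CPM in young (n = 6) and 41.8 ± 12.6 CPM in untreated old bladders (n = 6), and Hdc 0.592 ± 0.396 and 0.621 ± 0.160 CPM. Among markers of other cells that make Kit, Ano1 of interstitial cells of Cajal averaged 160.3 CPM in young and 189.9 CPM in untreated old bladders, a log2 fold change of 0.25 (SE 0.069, edgeR adjusted p = 0.017), while the other marker of that list, Etv1, averaged 10.9 and 10.8 CPM. Of the 5 melanocyte markers, Tyr and Tyrp1 had at most 2 counts in any bladder, Dct at most 6 and Mlana at most 7. Pmel passed the filter on low counts and was not called, with means of 2.04 CPM in young and 1.81 CPM in untreated old bladders. Their part in the Kit level was not tested.

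**Figure D2:**
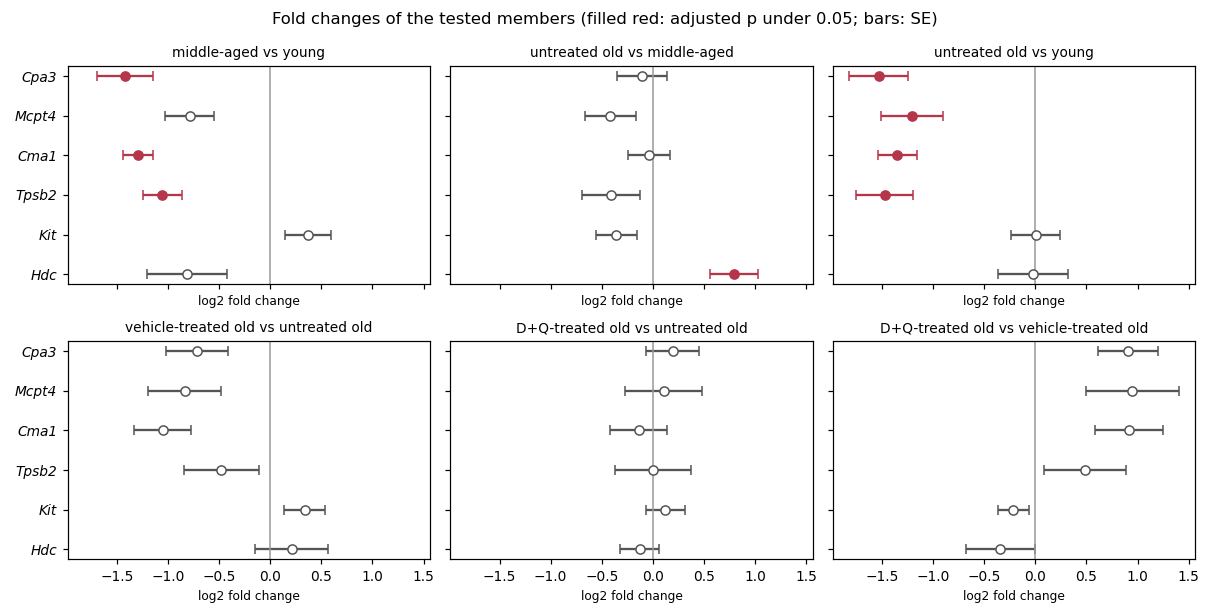
Log2 fold change (horizontal axis) with SE of the 6 tested members in 6 comparisons, filled red where the edgeR adjusted p was under 0.05. Filled points lie left of 0 for 3 proteases at 10 months and 4 at 26 months against young, and right of 0 for Hdc between 10 and 26 months.

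The balance between the proteases was examined as the log2 ratio of each gene's CPM to that of Cpa3 in the same bladder, with 0.1 added to both. The Mcpt4 ratio was -0.06 ± 0.161 in young (n = 6) and 0.52 ± 0.239 in middle-aged bladders (n = 5), and 0.18 ± 0.632 in untreated old bladders (n = 6). The Cma1 ratio was 0.33 ± 0.634, 0.33 ± 0.305 and 0.36 ± 0.325 in those groups. The Tpsb2 ratio was 0.30 ± 0.299, 0.56 ± 0.334 and 0.20 ± 0.599. Among these 3 groups the means of each protease ratio differed by less than 1 log2 unit. In water-treated old bladders (n = 5) the Mcpt4 ratio was 0.99 ± 0.820, with a median of 0.594 and a highest value of 2.4. That highest value was from replicate 1, which held 3 counts of Cpa3. The ratio of Kit to Cpa3 was 4.34 ± 0.864, 5.97 ± 0.531 and 5.70 ± 0.694, and that of Hdc to Cpa3 was -1.69 ± 0.312, -0.92 ± 0.495 and -0.13 ± 0.422. These ratios are given without a test.

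Tpsab1, Ms4a2 and Fcer1a did not pass the filter on low counts in any comparison and were compared by a two-sided exact permutation test of log2(CPM + 0.1), unadjusted for the 27 such tests. Tpsab1, the tryptase mouse mast cell protease 7, of which C57BL/6 mice lack the functional enzyme because of a splice-site change, had 26 counts over the 6 young bladders, 6 over the 5 middle-aged and 11 over the 6 untreated old. Old against young gave an exact permutation p of 0.061 and middle-aged against young one of 0.078. Ms4a2 had 16, 13 and 32 counts in those groups and between 0 and 7 per bladder. Fcer1a had 7, 18 and 29 counts, and its old against young exact permutation p was 0.058. The smallest p that 6 bladders against 6 allow is 0.0022. No difference in the receptor chains was detected between the age groups at these counts. A library with 0 counts of a gene allows up to 3 counts, or between 0.0570 and 0.199 CPM, counting error only. Among the old groups, Tpsab1 had 1 count over the 4 vehicle-treated bladders and 12 over the 5 water-treated (exact permutation p = 0.032, unadjusted). The direction of the Fcer1a values, lower in young, was opposite to that of the proteases.

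**Figure D3:**
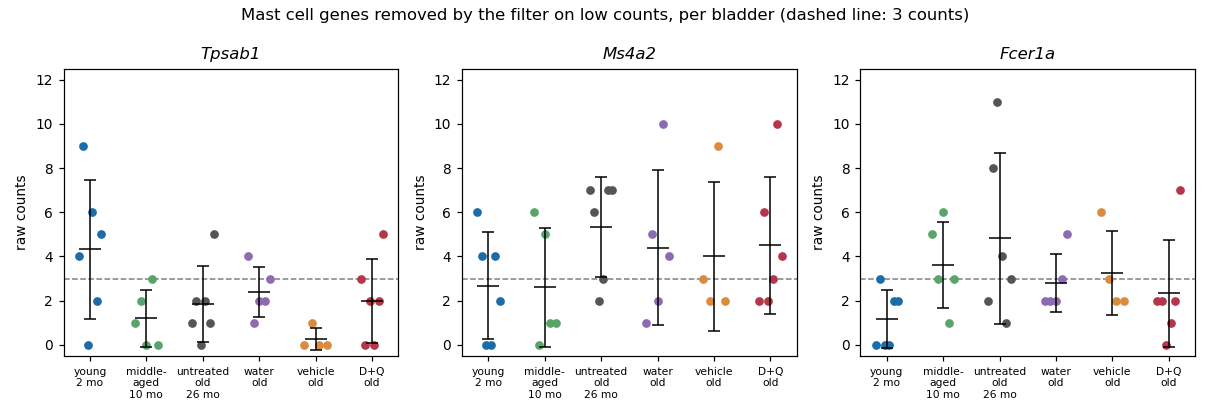
Raw counts (vertical axes) of Tpsab1, Ms4a2 and Fcer1a in each bladder (points) of the 6 groups, with the group mean and SD (black) and a dashed line at 3 counts. No bladder had more than 11 counts of any of the 3 genes, and 3 of the 4 vehicle-treated bladders had 0 counts of Tpsab1.

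The genes that carry the signal from the IgE receptor and Kit inside the cell behaved unlike the proteases. Of 16 such genes, all tested, 14 rose and 0 fell between middle-aged and untreated old bladders, beside 13% of all genes that rose and 11% that fell, with a median log2 fold change of 1.08 against -0.00 over all genes. Syk, the kinase that binds the gamma chain, rose from 21.95 ± 1.48 (n = 5) to 68.2 ± 18.9 CPM (n = 6), a log2 fold change of 1.66 (SE 0.161, edgeR adjusted p = 2.1e-05). Lat, the adapter below Syk, rose by 2.07 (SE 0.215, edgeR adjusted p = 3.2e-05) and Lat2 by 1.34 (SE 0.138). Fcer1g, the gamma chain, which many leukocytes share, rose by 0.63 (SE 0.177, edgeR adjusted p = 0.021). Btk rose by 1.44 (SE 0.130) and Inpp5d, a phosphatase that restrains the receptor, by 1.10 (SE 0.077). Between young and middle-aged bladders 0 of the 16 rose and 3 fell, beside 4.96% and 5.85% of all genes, namely Fyn, Pik3cd and Lcp2, with log2 fold changes of -0.39, -0.38 and -0.82.

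Between middle-aged and untreated old bladders these signaling genes rose together with markers of other leukocytes. Ptprc, the pan-leukocyte gene, rose by 1.70 between middle-aged and untreated old bladders (SE 0.154, edgeR adjusted p = 1.3e-05), and all 4 B cell and all 3 T cell markers rose. The summed level of the B cell markers lay between 3.02 and 7.75 CPM in middle-aged bladders and between 54.5 and 162.5 CPM in untreated old ones, and that of the T cell markers had medians of 3.76 and 22.05 CPM. Of the 4 macrophage markers 3 rose, with sums between 297.9 and 349.2 and between 377.6 and 589.6 CPM. From young to middle-aged bladders the directions were mixed. The median log2 fold change was -0.29 for the signaling genes and -0.27 for macrophage markers, but 1.37 for B cell and 0.47 for T cell markers. The part of these cells in the later rise of the signaling genes was not tested.

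**Figure D4:**
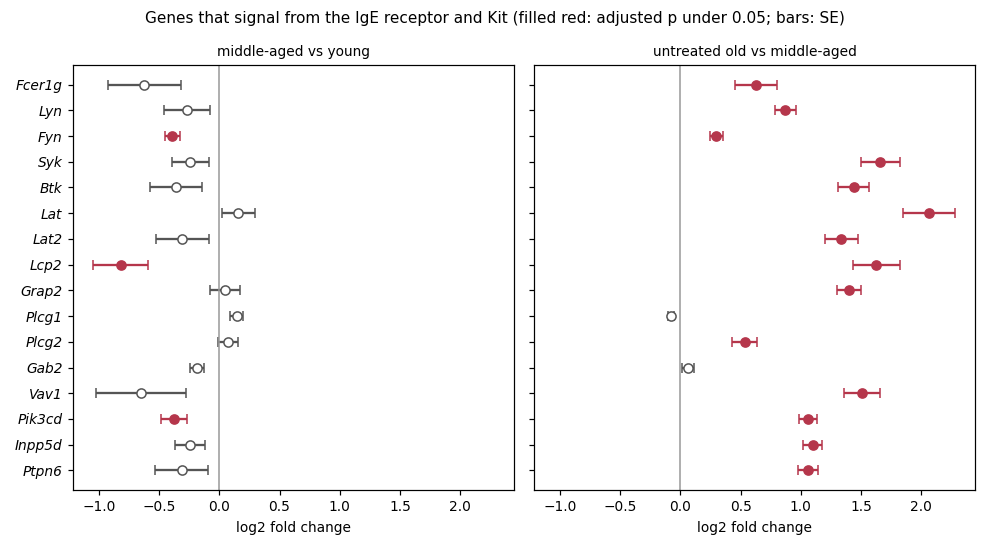
Log2 fold change (horizontal axes) with SE of 16 genes that signal from the IgE receptor and Kit, for middle-aged against young and untreated old against middle-aged bladders, filled red where the edgeR adjusted p was under 0.05. In the second panel 14 filled points lie right of 0, and in the first 3 lie left of it.

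RNA of the IgE heavy chain was read in old bladders. Ighe, which encodes it, had 0 counts in all 11 young and middle-aged bladders, which allows up to 3 counts in each library, and between 4 and 3096 counts in the 6 untreated old ones. The level in untreated old bladders ranged from 0.0969 through a median of 1.80 to 58.9 CPM, and water-, vehicle- and D+Q-treated old bladders had medians of 1.84, 0.737 and 0.945 CPM, with 2 of the 5 water-treated bladders at 0 counts. Ighe passed the filter on low counts only through the old bladders, so its values are given as a description with no test. Il33, an alarmin that acts on mast cells, rose from 17.1 ± 2.53 (n = 5) to 28.1 ± 4.74 CPM (n = 6), by 0.74 on the log2 scale (SE 0.122, edgeR adjusted p = 0.00089). Its receptor Il1rl1, present on mast cells and other leukocytes, had fallen between young and middle-aged bladders by 0.63 (SE 0.149, edgeR adjusted p = 0.020). Kitl averaged 39.1 ± 12.0 CPM in young and 47.2 ± 3.19 CPM in untreated old bladders and was not called (edgeR adjusted p = 0.268). Il3 had 0 counts in every bladder and Il9 at most 1.

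Among 5 cytokine receptors, 3 rose and 0 fell between middle-aged and untreated old bladders, beside 13% and 11% of all genes. Il9r, which binds the mast cell growth factor interleukin-9, was at 0.394 ± 0.319 CPM in middle-aged (n = 5) and 6.04 ± 1.49 CPM in untreated old bladders (n = 6), a log2 fold change of 3.93 (SE 0.363, edgeR adjusted p = 1.4e-05) without overlap. Csf2rb rose by 0.86 and Crlf2 by 0.23. The summed B cell markers rose in the same comparison, from a mean of 4.815 to one of 100.1 CPM. Which cells made the Il9r RNA was not tested. Of 8 tested genes that histamine and mast cell proteases act on or that break histamine down, 2 rose and 1 fell. The shares over all genes were 13% and 11%, and 8 genes are too few to read these counts as a trait of the list. The histamine receptor Hrh2 rose by 1.11 (SE 0.226, edgeR adjusted p = 0.0036), Ace by 0.44, and Hrh3 fell by 0.45.

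Of 24 further genes made by mast cells or basophils, 12 were tested. Between middle-aged and untreated old bladders 3 rose, namely Hpgds by 0.54, Srgn by 1.05 and Cyp11a1 by 2.82. In the same comparison 2 fell, Gata2 by 0.24 and Cd200r3 by 0.17. Of all genes 13% rose and 11% fell, and counts from 12 genes are not read as a trait of the list. Srgn, the core protein of granule proteoglycans and shared with other leukocytes, went from 17.0 ± 1.77 (n = 5) to 34.6 ± 4.93 CPM (n = 6). Between young and middle-aged bladders Mitf rose by 0.33, Cd200r3 rose by 0.38 and Il1rl1 was the 1 gene that fell, beside 4.96% and 5.85% of all genes.

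The question put to the treated groups was whether gavage or the senolytic pair moved these genes in old bladders. The vehicle-treated group had the lowest mean of each of the 4 proteases, but no member passed the test. Summed over Cpa3, Mcpt4, Cma1 and Tpsb2, the level was 1.96 ± 0.377 CPM in vehicle-treated (n = 4), 3.32 ± 1.06 in untreated (n = 6), 3.76 ± 0.768 in water-treated (n = 5) and 3.40 ± 1.47 in D+Q-treated old bladders (n = 6), beside 8.63 ± 2.05 in young (n = 6) and 4.03 ± 0.288 in middle-aged bladders (n = 5). The young group ranged from 5.69 to 11.8 CPM and the highest D+Q-treated bladder was at 5.92 CPM, so young overlapped the D+Q-treated group by a small margin. Young and middle-aged bladders did not overlap. Between neighbouring groups below young the ranges of mean ± SD overlapped.

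Cma1 was at 0.536, 0.508, 0.319 and 0.423 CPM in the 4 vehicle-treated bladders, below the lowest untreated old bladder at 0.589, a separation that 0.556% of 17440 genes showed. The gap rests on few counts, and raw counts overlapped. The nearest bladders held 22 counts (vehicle-treated replicate 1) and 19 counts (untreated old replicate 1). The log2 fold change of Cma1 was -1.05 (SE 0.281, edgeR adjusted p = 0.399). Mcpt4 was at 0.536, 0.642, 0.294 and 0.376 CPM with vehicle, giving -0.84 (SE 0.361) against untreated, and Cpa3 at 0.585, 0.294, 0.441 and 0.376 CPM, giving -0.72 (SE 0.307). Tpsb2 gave -0.48 (SE 0.369). In this comparison edgeR called 0 of 17440 genes, although 1464 had an unadjusted p under 0.05. DESeq2 likewise called 0 members.

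Against water-treated bladders, Mcpt4 and Cma1 were again below in every vehicle-treated bladder, as were 0.393% of genes. For Cma1 the nearest bladders held 22 counts (vehicle-treated replicate 1) and 21 counts (water-treated replicate 3), so this gap too rests on few counts. Mcpt4 was at 1.26, 1.36, 0.993, 0.872 and 1.19 CPM with water, a log2 fold change of -1.27 (SE 0.275) for vehicle against water, and Cma1 was at 0.736, 1.39, 0.596, 1.14 and 1.45 CPM, giving -1.25 (SE 0.322). Cpa3 gave -0.43 (SE 0.383) and Tpsb2 -0.67 (SE 0.324). The edgeR adjusted p was 0.9999 for each, with 0 of 17294 genes called. An unadjusted p under 0.05 was reached by 322, fewer than the share of 0.05 that no difference would give. Water against untreated old bladders gave 0 members called, beside 1% of 17250 genes.

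D+Q against vehicle, which set the drugs against their own vehicle, gave log2 fold changes of 0.91 (SE 0.297) for Cpa3, 0.95 (SE 0.456) for Mcpt4, 0.91 (SE 0.335) for Cma1 and 0.48 (SE 0.403) for Tpsb2, all above 0 and none passing (edgeR adjusted p = 0.994 for each). Cpa3 lay between 0.471 and 1.17 CPM with D+Q and Cma1 between 0.504 and 1.38, so both overlapped the vehicle group. Kit, the member whose product dasatinib inhibits, ranged from 29.1 through a median of 46.0 to 58.1 CPM with D+Q and was at 63.4, 50.9, 50.7 and 47.4 CPM with vehicle, a log2 fold change of -0.22 (SE 0.153). Hdc gave -0.34 (SE 0.340). The test called 0 of 17267 genes here. An unadjusted p under 0.05 was reached by 722, again fewer than the share of 0.05 that no difference would give.

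Against untreated old bladders the D+Q values were close to 0: 0.19 (SE 0.257) for Cpa3, 0.11 (SE 0.377) for Mcpt4, -0.14 (SE 0.279) for Cma1, 0.00 (SE 0.374) for Tpsb2, 0.12 (SE 0.195) for Kit and -0.13 (SE 0.191) for Hdc, with 0 of 17037 genes called by edgeR and 2200 at an unadjusted p under 0.05. Against water they were 0.46 (SE 0.308) for Cpa3, -0.32 (SE 0.352) for Mcpt4, -0.34 (SE 0.310) for Cma1 and -0.19 (SE 0.361) for Tpsb2, with 0 of 17161 genes called and 1342 at an unadjusted p under 0.05. Against the mean of the other 3 old groups Cpa3 gave 0.52 (SE 0.239, unadjusted p = 0.041, edgeR adjusted p = 0.636), and 0 of 17893 genes were called, with 1373 at an unadjusted p under 0.05. The 3 comparisons share the D+Q libraries.

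The genes whose level followed the proteases most closely from bladder to bladder were ranked by Pearson's r with the log2 sum of Cpa3, Mcpt4, Cma1 and Tpsb2 over the 32 bladders, after each group's mean was removed. Apln, Egfl7, Wfdc17, Gm11100, Rab38, Trem2, Ripk1, Mthfsl, Exoc3l2 and Cdo1 led the 18087 genes ranked, from which the 9 members were left out, with r between 0.561 and 0.659. The eleventh gene stood at 0.558, so the limit of 10 separates near neighbours. The lowest r of all ranked genes was -0.691, larger in size than the highest. The 10 names are therefore not read as partners of the proteases. Without removing group means the same 10 genes had r between -0.29 and 0.579. Of the other members, Hdc had an r of 0.284 and Kit one of -0.386. Libraries differed in depth and tissue make-up, which the genes of a library share, and r is given as a description without a p.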

How the data were processed

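RNA of 32 whole mouse bladders, 1 library each, was measured by stranded total RNA sequencing. Per the labels and the study's methods, the authors aligned reads with STAR 2.7.3 to mm10 and counted them per gene with Subread featureCounts. The strand setting of the counting is not given in the sources used here. The deposited raw counts cover 32285 genes, and a deposited log2 table holds the same counts plus 1, divided by gene length and scaled to 100000 per library. Members and gene lists were chosen with earlier results of these data known. Named genes were the 9 members, list genes that passed a test or are defining markers near 0, and the 10 genes most like the proteases.

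Counts were tested with edgeR 4.0.16 (trimmed-mean scaling, filterByExpr, quasi-likelihood test, only the groups compared, Benjamini-Hochberg over all genes, threshold 0.05). The procedure was tested on simulated data. Alternatives were DESeq2 1.42.0, limma 3.58.1 on the log2 table, other scaling, filters and sample sets. Permutation tests used scipy 1.17.1. P-values measure the spread between bladders. No 2 libraries of a group held identical counts.

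Transcripts of Tpsb2, Tpsab1, Cpa3, Kit and Fcer1a shared no window of 50 bases with another gene in the GENCODE annotation of mm10, whereas 5.48% of the windows of Mcpt4 and 5.38% of those of Cma1 were shared, with Cma2 and Mcpt9 and with Gm48934. Counts of these chymases are uncertain to that extent. No member overlapped another annotated gene except Cpa3, which holds the microRNA gene Mir7007 on its strand.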

Additional observations from a re-analysis of the deposited data

Results flagged for a closer look

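Of 54 combinations of member and group examined, 2 had a bladder that stood apart from the others by Dixon's test, where chance gives about 1 in 20. Hdc in young replicate 2 was at 1.33 CPM (44 counts), far above the next young bladder at 0.555 CPM. Tpsab1 in vehicle-treated old replicate 2 was at 0.0268 CPM, which is 1 count, while the other 3 bladders of that group had 0.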

How the results depend on the processing

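The fall of the proteases between young and untreated old bladders held under every alternative, with 4 members lower in each leave-one-out fit and none higher. Between young and middle-aged bladders 3 or 4 members were lower when any 1 bladder was left out, and 5 without both shallowest young libraries, an alternative chosen after seeing the data. Between middle-aged and untreated old bladders the single rise, Hdc, became 0 members with at least 10 counts required in every bladder (Hdc is then removed), with all 6 groups in a single fit and with a replicate block, and 0 or 1 with 1 bladder left out. With that block, which uses the replicate numbers as pairs, 1 member, Kit, was lower (-0.45, edgeR adjusted p = 0.039). In no comparison did every such pair's deviations correlate above 0.1. This check cannot decide whether bladders were paired. Some replicate numbers of the middle-aged, water-treated and vehicle-treated groups differ from those in the deposited column names. The cause of these differences was not tested. For D+Q against untreated old bladders Mcpt4 turned to -0.035 and Tpsb2 to -0.059 with limma on the deposited log2 table, and Tpsb2 to -0.046 with the replicate block. With 1 bladder left out, Mcpt4 ranged there from -0.13 to 0.31, Cma1 from -0.33 to 0.027 and Tpsb2 from -0.33 to 0.23, and Cma1 between middle-aged and untreated old bladders from -0.20 to 0.055. In the other comparisons of old groups 0 members were called under all alternatives. The summed protease level of middle-aged bladders was 46.7% of the young level in CPM and moved by less than its SD in TPM. All 10 genes most like the proteases were also the top 10 with 1 CPM added in place of 0.1. Counts of under 12 per bladder limit what can be said of Tpsab1, Ms4a2 and Fcer1a, which were not called without the filter either.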
